A study of Mus musculus with 37 samples.

Results

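The expression of 43 genes of mitosis and cytokinesis was followed in mouse liver after partial hepatectomy, the surgical removal of part of the liver, in Nox4 knockout (KO) and wild-type (WT) mice. The genes were taken by symbol from a fixed list with no cut on their values, although earlier results of these data were known. All 43 were found among the 55487 genes of the counts table. They comprise 7 genes of the mitotic entry switch, 5 mitotic kinases, 7 genes of the spindle checkpoint and the anaphase-promoting complex, 4 of the chromosomal passenger complex, 6 of centromere and kinetochore, 6 of the spindle, 6 of cytokinesis and 2 of the mitotic chromosome. All 43 passed the count filter, so that they were tested among 15564 genes.

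RNA was sequenced from 37 livers, and the groups were KO livers from sham operations (5) and 6 h (3), 24 h (4), 48 h (4) and 7 d (3) after hepatectomy, and WT livers from sham operations (5) and the same times (3, 3, 4 and 3). Nox4 encodes an NADPH oxidase that makes hydrogen peroxide, and the series asks how its loss affects liver regeneration. All 6 h livers after hepatectomy came from males, and every other group held both sexes. Sham livers were pooled over their times after surgery. Among the KO sham livers, replicate 5 was taken at 6 h, replicate 1 at 24 h, replicates 2 and 3 at 48 h and replicate 4 at 72 h. Among the WT sham livers, replicate 5 was taken at 6 h, replicate 3 at 24 h, replicates 2 and 4 at 48 h and replicate 1 at 7 d. The labels name no strain, age, litter or batch and do not say which part of Nox4 was deleted or in which cells. They do not name the animals either, so p-values measure the spread between these libraries.

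Total counts lay between 26232544 and 48827025 per library. Levels are given as CPM, the count scaled to the effective (TMM) library size. Changes are given as log2 changes with their standard error (SE) from an edgeR quasi-likelihood model of all 37 libraries with sex as a covariate. A change was called at an adjusted p under 0.05, adjusted over all 15564 genes. Nox4 itself stood at 0 to 0.245 CPM in 7 KO females against 0.778 to 3.36 CPM in 7 WT females, and at 0.325 to 4.98 CPM in 12 KO males against 3.95 to 23.5 CPM in 11 WT males. The ranges were apart in females and overlapped in males, and reads from an undeleted part of the gene would not test the label. The summed level of 12 hepatocyte markers was between 49910 and 180100 CPM in every liver, so hepatocyte markers were present in all 37.

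Entry into mitosis is driven by Cdk1 bound to cyclin B, and Plk1 and the Aurora kinases act beside it on centrosomes, spindle and chromosomes. The kinetochore ties chromosomes to microtubules, the checkpoint holds the anaphase-promoting complex until all are attached, and the central spindle then guides the contractile ring that separates the daughter cells. Most of these genes are silent in resting cells and transcribed together late in the cell cycle, through the MuvB complex with B-Myb and FoxM1 at the cell cycle genes homology region (CHR) and through NF-Y at CCAAT boxes. Adult hepatocytes rest outside the cell cycle, enter it in near synchrony after hepatectomy, and often omit cytokinesis, which leaves cells with a pair of nuclei.

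The 250 bases before the RefSeq gene start were found for 35 of the 43 genes (RefSeq table of GRCm38.p6). Both strands were searched for the CHR letters TTTGAA or TTTAAA and for CCAAT. Such a box was present in 27 of the 35 windows (77.1%), against 37.5% of the windows of all 27025 genes in the table. At least 2 CCAAT boxes were present in 18 of the 35 (51.4%), against 11.5% of all genes. The CHR letters were present in 15 (42.9%), against 28.1%, and both motifs in 13 (37.1%), against 11.2%. These are matches of letters and not measured binding. The windows of 7 genes are shown 5′ to 3′ in the direction of transcription, because their genes stand at different steps of mitosis and the windows hold the motifs in different arrangements. Capitals mark CCAAT, its reverse complement ATTGG, and the CHR letters.
Cdk1: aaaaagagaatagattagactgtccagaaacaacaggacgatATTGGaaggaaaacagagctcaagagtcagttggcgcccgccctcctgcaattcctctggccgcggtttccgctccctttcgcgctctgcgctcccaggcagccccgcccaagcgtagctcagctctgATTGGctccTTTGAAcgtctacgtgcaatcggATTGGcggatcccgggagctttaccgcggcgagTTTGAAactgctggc
Ccnb1: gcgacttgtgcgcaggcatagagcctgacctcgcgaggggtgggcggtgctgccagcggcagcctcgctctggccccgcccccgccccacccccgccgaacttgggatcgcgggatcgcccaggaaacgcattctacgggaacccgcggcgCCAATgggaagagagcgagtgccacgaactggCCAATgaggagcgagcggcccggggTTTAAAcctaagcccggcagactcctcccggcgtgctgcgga
Ccnb2: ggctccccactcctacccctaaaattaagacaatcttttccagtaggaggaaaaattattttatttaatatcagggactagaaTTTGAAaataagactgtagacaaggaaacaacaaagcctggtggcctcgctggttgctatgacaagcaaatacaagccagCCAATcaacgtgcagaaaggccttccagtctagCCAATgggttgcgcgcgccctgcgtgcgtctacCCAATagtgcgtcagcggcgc
Plk1: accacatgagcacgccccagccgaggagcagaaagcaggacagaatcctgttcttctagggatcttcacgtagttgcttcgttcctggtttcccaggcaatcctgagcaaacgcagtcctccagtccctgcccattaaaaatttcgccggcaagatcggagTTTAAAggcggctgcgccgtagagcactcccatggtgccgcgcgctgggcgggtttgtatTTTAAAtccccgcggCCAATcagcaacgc
Cdc20: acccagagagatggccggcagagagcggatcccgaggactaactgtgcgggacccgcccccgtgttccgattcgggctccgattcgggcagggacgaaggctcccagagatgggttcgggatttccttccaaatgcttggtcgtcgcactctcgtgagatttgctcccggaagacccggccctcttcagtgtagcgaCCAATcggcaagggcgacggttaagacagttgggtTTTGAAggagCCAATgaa
Hmmr: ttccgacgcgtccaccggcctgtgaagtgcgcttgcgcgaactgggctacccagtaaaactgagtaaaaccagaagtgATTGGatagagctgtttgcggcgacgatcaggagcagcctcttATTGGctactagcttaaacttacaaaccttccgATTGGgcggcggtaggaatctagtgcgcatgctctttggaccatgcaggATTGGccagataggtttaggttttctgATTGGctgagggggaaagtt
Nusap1: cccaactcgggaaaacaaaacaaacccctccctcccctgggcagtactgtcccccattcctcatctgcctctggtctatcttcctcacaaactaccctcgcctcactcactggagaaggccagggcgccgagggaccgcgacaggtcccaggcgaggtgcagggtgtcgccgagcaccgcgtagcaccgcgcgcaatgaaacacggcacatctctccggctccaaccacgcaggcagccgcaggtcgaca
The windows lie at chr10:69352913-69353162, minus strand (Cdk1), chr13:100786487-100786736, minus strand (Ccnb1), chr9:70421555-70421804, minus strand (Ccnb2) and chr7:122159185-122159434, plus strand (Plk1). Those of the other genes lie at chr4:118437344-118437593, minus strand (Cdc20), chr11:40733438-40733687, minus strand (Hmmr) and chr2:119618048-119618297, plus strand (Nusap1). The gene coordinates printed below come from another annotation, in which Cdk1, Ccnb1 and Cdc20 start inside these windows. Positions here are counted from the RefSeq gene start. The window of Ccnb1 holds CCAAT boxes at -99 and -67, which are 32 bases apart, and the CHR letters at -42. Ccnb2 has 3 CCAAT boxes, each 33 bases from the next, and the CHR letters further upstream at -167. Plk1 has the CHR letters at -89 and -29 and 1 CCAAT box at -14. Hmmr has 5 CCAAT boxes on the reverse strand and no CHR letters, and Nusap1 has neither motif in this window.

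The mitosis genes followed the same course as a group, with low levels in sham livers and up to 24 h, a peak at 48 h and low levels again at 7 d. The mean log2(CPM + 1) over the 43 genes was 0.81, 0.58, 0.87, 2.07 and 0.62 in the KO sham livers, 0.68, 0.58 and 0.42 in the KO 6 h livers, 0.61, 0.40, 0.43 and 0.66 in the KO 24 h livers, 3.76, 3.57, 3.40 and 2.84 in the KO 48 h livers, and 1.20, 1.40 and 0.86 in the KO 7 d livers. In WT livers it was 0.78, 1.18, 0.51, 1.23 and 0.50 at sham, 0.59, 0.42 and 0.42 at 6 h, 0.43, 1.31 and 0.64 at 24 h, 3.91, 2.51, 0.56 and 4.39 at 48 h, and 0.65, 1.04 and 0.70 at 7 d. The 4 KO livers at 48 h were the 4 highest KO livers. Of the 4 WT livers at 48 h, 3 were above every other WT liver and replicate 3, from a female, lay within the range of the WT sham livers. KO sham replicate 4, taken 72 h after a sham operation, stood above the other KO sham livers in all 43 genes. It was the highest KO sham liver in 4050 of all 15564 genes tested.

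**Figure D1:**
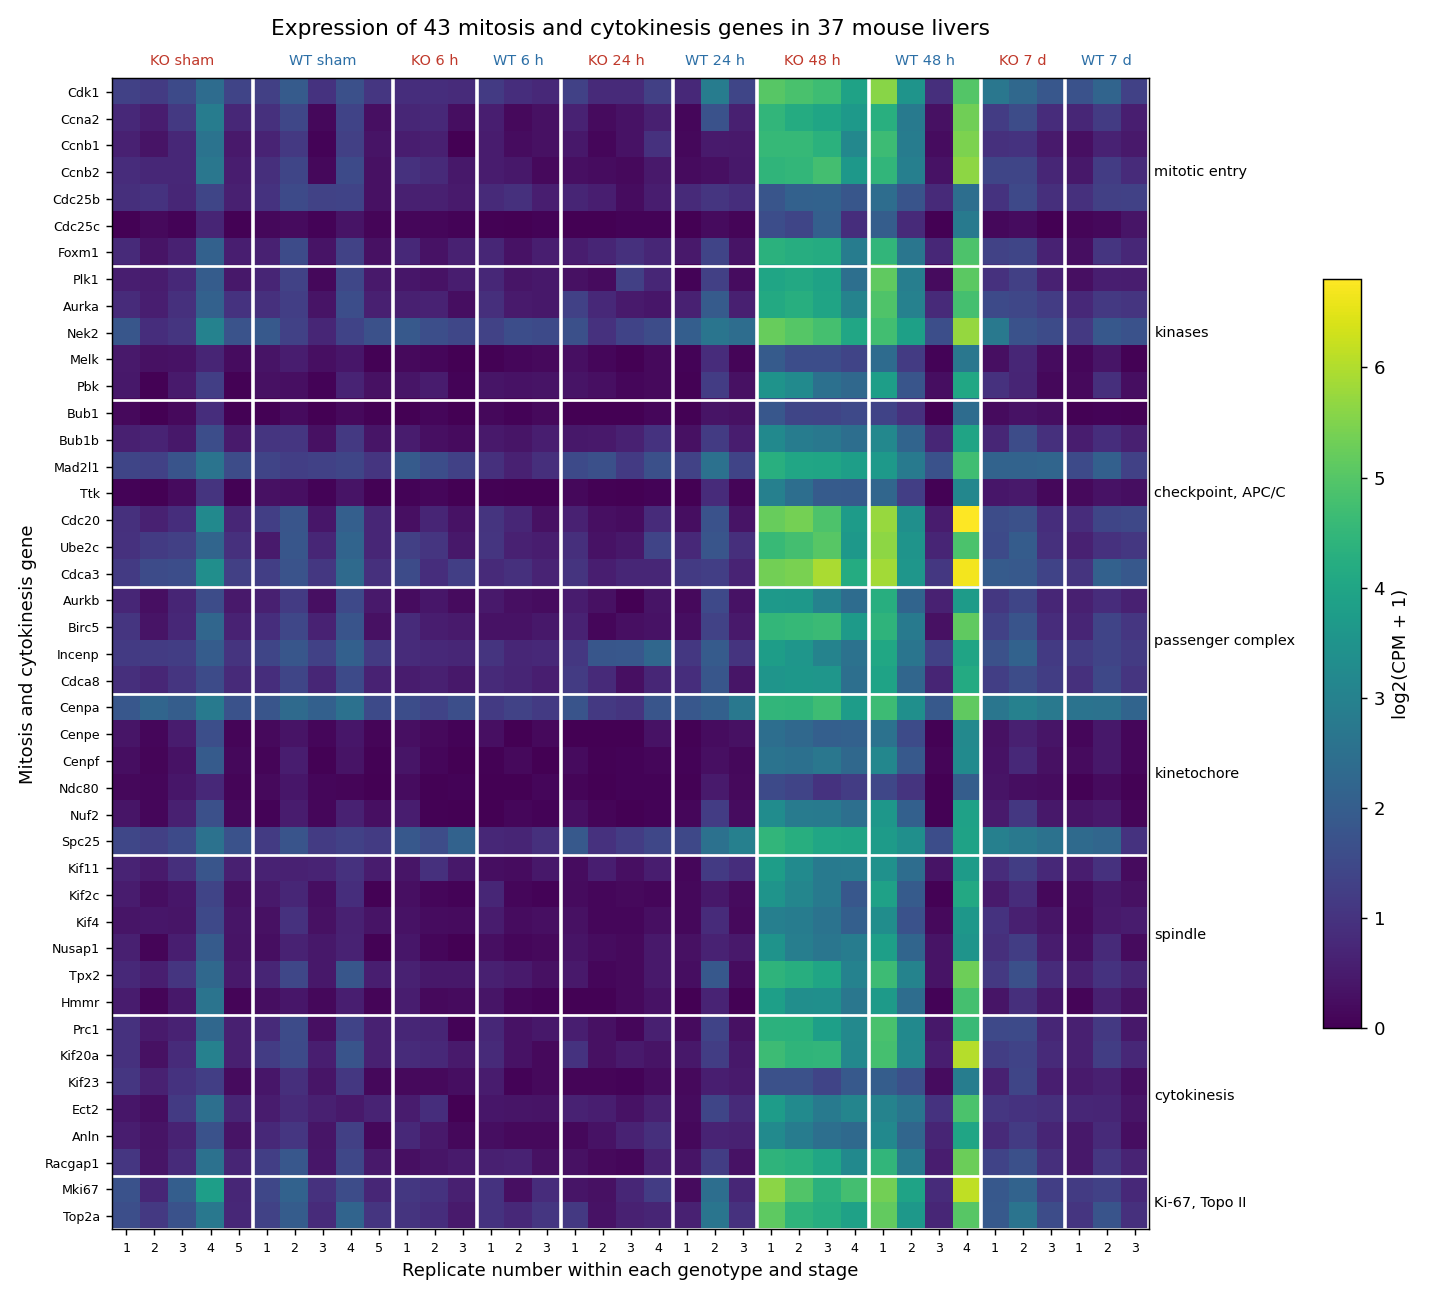
Level of each of the 43 genes (rows, ordered by role) in each of the 37 livers (columns, grouped by stage and genotype), as log2(CPM + 1). The bright columns are the KO and WT 48 h livers, except WT 48 h replicate 3, and KO sham replicate 4 is brighter than the other sham livers.

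At 48 h after hepatectomy, genes of every step of mitosis were higher than in sham livers. In KO livers 35 of the 43 genes rose and none fell (median log2 change 3.16), against 2.3% of all genes tested that rose and a median over all genes near 0. In WT livers 42 rose and none fell (median log2 change 3.69), against 4.68% of all genes and a median of 0.07. The ranges of the KO 48 h and KO sham livers did not overlap for any of the 43 genes, against 5.06% of all genes that were higher without overlap. In WT livers this held for 2 genes (4.63% of all genes), Mad2l1 and Ect2, since replicate 3 was the lowest WT 48 h liver in all 43 genes and lay within or below the sham range in the other 41. In whole liver, a change in the number of dividing cells and a change in RNA per cell cannot be told apart. The KO count was 18 without KO 48 h replicate 1, 20 without KO sham replicate 1, 3 or 5, 23 without KO sham replicate 2, and 42 without KO sham replicate 4 and WT 48 h replicate 3. The WT count lay between 37 and 43 when single livers were left out, but it was 4 in a fit of the compared groups alone and 16 against sham livers of 24 h and 48 h only. No marker of another liver cell type passed the test between KO 48 h and KO sham livers. In WT livers 4 of 12 T and NK cell markers tested and 2 of 7 B cell markers fell at 48 h, against 3.62% of all genes. The summed T and NK cell level was 2.29 to 4.09 CPM in WT 48 h livers against 4.89 to 12.8 CPM in WT sham livers. The part of these cells in the changes described here was not tested.

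Among the 7 genes of the mitotic entry switch, all 7 rose in KO livers and 6 of 7 in WT livers. Cdk1, the kinase that triggers mitosis (ENSMUSG00000019942.13, chr10:69335146-69352938, minus strand), was at 31.7, 27.8, 24.6 and 13.98 CPM in the KO 48 h livers, against 1.504, 1.29, 1.87, 4.27 and 1.63 CPM in the KO sham livers (log2 change 3.49, SE 0.63, edgeR adjusted p = 0.00191). In WT it was at 47.5, 10.4, 0.88 and 30.6 CPM in the WT 48 h livers, against 1.46, 2.87, 0.985, 2.17 and 1.12 CPM in the WT sham livers (log2 change 3.58, SE 0.66, edgeR adjusted p = 0.00131). Each KO 48 h liver was above each KO sham liver, and WT 48 h replicate 3 was below all 5 WT sham livers. At the other times KO livers were at 0.8401, 0.868 and 0.8001 CPM (6 h), 1.48, 0.738, 0.755 and 1.46 CPM (24 h) and 5.51, 3.95 and 2.603 CPM (7 d). The matching WT values were 1.22, 0.8401 and 0.731 CPM (6 h), 0.713, 6.23 and 1.68 CPM (24 h) and 2.27, 3.56 and 1.48 CPM (7 d). Ccnb1 (ENSMUSG00000041431.16, chr13:100778650-100786570, minus strand) encodes cyclin B1, which activates Cdk1. Its level was 22.5, 22.3, 19.1 and 8.07 CPM in the KO 48 h livers, against 0.537, 0.276, 0.698, 4.96 and 0.382 CPM in the KO sham livers (log2 change 3.64, SE 0.89, edgeR adjusted p = 0.0179). The WT values were 24.3, 6.25, 0.167 and 42.5 CPM in the WT 48 h livers, against 0.592, 1.17, 0.0518, 1.46 and 0.271 CPM in the WT sham livers (log2 change 4.21, SE 0.98, edgeR adjusted p = 0.00678). The lowest KO 48 h value was that of replicate 4, a female, and still exceeded the highest KO sham value. Its other KO values were 0.462, 0.509 and 0 CPM (6 h), 0.352, 0.0886, 0.266 and 0.962 CPM (24 h) and 0.9398, 1.01 and 0.403 CPM (7 d). WT livers of these times had 0.444, 0.177 and 0.243 CPM (6 h), 0.106, 0.417 and 0.382 CPM (24 h) and 0.215, 0.563 and 0.392 CPM (7 d). The 0 in KO 6 h replicate 3 allows up to 0.15 CPM at a floor of 3 counts. Ccna2 (ENSMUSG00000027715.9, chr3:36564865-36572150, minus strand) encodes cyclin A2, which acts in S phase and at mitotic entry. It reached 21.3, 17.2, 14.8 and 11.8 CPM in the KO 48 h livers, against 0.725, 0.4599, 1.196, 6.22 and 0.695 CPM in the KO sham livers (log2 change 3.10, SE 0.87, edgeR adjusted p = 0.0454). In WT livers the values were 18.4, 5.995, 0.238 and 38.7 CPM in the WT 48 h livers, against 0.912, 1.72, 0.104, 1.59 and 0.203 CPM in the WT sham livers (log2 change 3.99, SE 0.96, edgeR adjusted p = 0.00865). The highest sham value of Ccna2 in either genotype was that of KO sham replicate 4. The remaining KO livers stood at 0.672, 0.719 and 0.2 CPM (6 h), 0.562, 0.148, 0.266 and 0.502 CPM (24 h) and 1.305, 1.99 and 0.805 CPM (7 d). Those of WT stood at 0.481, 0.133 and 0.243 CPM (6 h), 0.0792, 2.31 and 0.509 CPM (24 h) and 0.644, 1.28 and 0.483 CPM (7 d). Ccna2 and Cdc25b share exons with genes on the opposite strand, and the strand setting of the counting is not given.

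Foxm1 (ENSMUSG00000001517.14, chr6:128362967-128376146, plus strand) encodes the transcription factor of the late cell cycle. It had 19.3, 17.8, 17.1 and 6.27 CPM in the KO 48 h livers, against 0.752, 0.276, 0.548, 3.28 and 0.486 CPM in the KO sham livers (log2 change 3.73, SE 0.75, edgeR adjusted p = 0.00414). WT livers had 21.2, 5.31, 0.6898 and 28.6 CPM in the WT 48 h livers, against 0.542, 1.91, 0.285, 1.53 and 0.237 CPM in the WT sham livers (log2 change 3.43, SE 0.80, edgeR adjusted p = 0.00683). The 3 male KO 48 h livers lay close together, and the female one was below them and above every KO sham liver. Away from 48 h, KO livers had 0.714, 0.2695 and 0.55 CPM (6 h), 0.457, 0.6202, 0.932 and 0.669 CPM (24 h) and 1.51, 1.69 and 0.564 CPM (7 d). Corresponding WT livers had 0.666, 0.265 and 0.487 CPM (6 h), 0.3698, 1.61 and 0.2799 CPM (24 h) and 0.191, 1.07 and 0.694 CPM (7 d). Of the other entry genes, Ccnb2 (cyclin B2) rose by a log2 change of 3.56 in KO and 3.69 in WT livers. Cdc25c, a phosphatase that removes the inhibitory phosphate from Cdk1, rose by 3.26 and 3.64. Cdc25b, a phosphatase of the same family, had the smallest change of the 43 genes in WT livers. It was at 2.48, 3.29, 3.37 and 2.51 CPM in the KO 48 h livers, against 0.886, 1.01, 0.673, 1.68 and 0.521 CPM in the KO sham livers (log2 change 1.60, SE 0.45, edgeR adjusted p = 0.043). Its WT values were 4.38, 2.41, 0.737 and 4.45 CPM in the WT 48 h livers, against 1.01, 1.89, 1.55, 1.56 and 0.237 CPM in the WT sham livers (log2 change 1.26, SE 0.46, edgeR adjusted p = 0.0855). The WT sham and 48 h ranges of Cdc25b overlapped, and it was the 1 gene of the 43 not called there.

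The mitotic kinases rose in 4 of 5 cases in KO livers and in 5 of 5 in WT livers. Plk1 (ENSMUSG00000030867.7, chr7:122159439-122169873, plus strand), the Polo-like kinase of centrosome maturation and mitotic exit, was at 15.1, 16.1, 13.98 and 4.55 CPM in the KO 48 h livers, against 0.483, 0.429, 0.723, 2.98 and 0.347 CPM in the KO sham livers (log2 change 3.52, SE 0.89, edgeR adjusted p = 0.0234). In WT livers it was at 33.97, 6.45, 0.143 and 33.05 CPM in the WT 48 h livers, against 0.641, 1.55, 0.104, 1.73 and 0.373 CPM in the WT sham livers (log2 change 4.01, SE 0.97, edgeR adjusted p = 0.00857). The 2 male WT livers at 48 h were above every KO liver. At the other times KO livers were at 0.336, 0.2695 and 0.45 CPM (6 h), 0.246, 0.148, 1.42 and 0.669 CPM (24 h) and 0.966, 1.45 and 0.537 CPM (7 d). The matching WT values were 0.703, 0.309 and 0.365 CPM (6 h), 0.0528, 1.45 and 0.178 CPM (24 h) and 0.215, 0.486 and 0.453 CPM (7 d). Aurka (ENSMUSG00000027496.15, chr2:172356190-172370535, minus strand) encodes Aurora A, the kinase of spindle poles. Its values were 16.4, 18.2, 14.7 and 7.195 CPM in the KO 48 h livers, against 0.779, 0.4905, 0.922, 3.32 and 1.01 CPM in the KO sham livers (log2 change 3.38, SE 0.69, edgeR adjusted p = 0.00474). The WT livers had 29.3, 6.92, 0.761 and 26.7 CPM in the WT 48 h livers, against 0.912, 1.38, 0.285, 2.04 and 0.509 CPM in the WT sham livers (log2 change 3.75, SE 0.74, edgeR adjusted p = 0.00231). WT 48 h replicate 3 fell inside the sham range, and the other 3 WT 48 h livers were above it. Its other KO values were 0.504, 0.569 and 0.2 CPM (6 h), 1.48, 0.709, 0.3996 and 0.335 CPM (24 h) and 1.91, 1.72 and 1.31 CPM (7 d). WT livers of these times had 0.888, 0.398 and 0.365 CPM (6 h), 0.528, 2.86 and 0.509 CPM (24 h) and 0.715, 1.18 and 1.06 CPM (7 d). Nek2, a centrosomal kinase, rose by 3.27 in KO and 3.45 in WT livers on the log2 scale, and Pbk, a mitotic MAP kinase kinase-like protein, by 3.82 and 4.42. Melk, a kinase of proliferating cells, was higher in KO livers by 2.64 without passing the threshold (adjusted p = 0.0636) and rose by 3.39 in WT livers.

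Spindle checkpoint and anaphase-promoting complex genes rose in 6 of 7 cases in KO livers and in 7 of 7 in WT livers. Cdc20 (ENSMUSG00000006398.15, chr4:118432901-118437352, minus strand), the activator that turns the complex on at anaphase, had 36.4, 40.5, 28.9 and 12.4 CPM in the KO 48 h livers, against 0.913, 0.552, 0.848, 8.38 and 0.66 CPM in the KO sham livers (log2 change 3.65, SE 0.92, edgeR adjusted p = 0.0216). The WT livers had 52.4, 9.48, 0.428 and 110.3 CPM in the WT 48 h livers, against 1.41, 2.44, 0.337, 3.19 and 0.645 CPM in the WT sham livers (log2 change 4.35, SE 1.02, edgeR adjusted p = 0.007). Per kilobase of exon, the mean level of Cdc20 at 48 h was 15.8 CPM per kb in KO livers and 23.1 CPM per kb in WT livers, the highest of the 43 genes in both. The remaining KO livers stood at 0.21, 0.629 and 0.25 CPM (6 h), 0.527, 0.207, 0.178 and 0.794 CPM (24 h) and 2.01, 2.23 and 0.859 CPM (7 d). Those of WT stood at 1.04, 0.663 and 0.243 CPM (6 h), 0.185, 2.31 and 0.2799 CPM (24 h) and 0.811, 1.66 and 1.78 CPM (7 d). Bub1b (ENSMUSG00000040084.9, chr2:118598211-118641591, plus strand) encodes BubR1, which holds Cdc20 inactive while kinetochores are unattached. It was at 8.29, 6.29, 5.54 and 4.44 CPM in the KO 48 h livers, against 0.5103, 0.613, 0.349, 2.03 and 0.417 CPM in the KO sham livers (log2 change 2.92, SE 0.62, edgeR adjusted p = 0.00629). Among WT livers it was at 8.07, 3.55, 0.666 and 14.6 CPM in the WT 48 h livers, against 1.08, 1.105, 0.233, 1.19 and 0.305 CPM in the WT sham livers (log2 change 2.98, SE 0.65, edgeR adjusted p = 0.00437). The 4 KO livers at 48 h spanned a narrower range than the 4 WT livers. Away from 48 h, KO livers had 0.4201, 0.2096 and 0.15 CPM (6 h), 0.352, 0.384, 0.533 and 1.003 CPM (24 h) and 0.653, 1.963 and 0.912 CPM (7 d). Corresponding WT livers had 0.3701, 0.309 and 0.487 CPM (6 h), 0.238, 1.28 and 0.458 CPM (24 h) and 0.453, 0.845 and 0.513 CPM (7 d). Ttk, the checkpoint kinase Mps1, had the largest change of the 43 genes in KO livers, at 6.82, 4.52, 2.86 and 2.78 CPM in the KO 48 h livers, against 0.0537, 0, 0.1496, 1.02 and 0.0347 CPM in the KO sham livers (log2 change 3.95, SE 0.97, edgeR adjusted p = 0.0176). Its WT values were 3.76, 1.39, 0.0238 and 7.93 CPM in the WT 48 h livers, against 0.247, 0.212, 0.0518, 0.271 and 0.0339 CPM in the WT sham livers (log2 change 4.00, SE 1.04, edgeR adjusted p = 0.0141). Mad2l1, which binds and inhibits Cdc20, rose by 2.58 in KO and 2.85 in WT livers. Ube2c, the ubiquitin-conjugating enzyme of the complex, rose by 3.80 and 3.86, and Cdca3, a cofactor of mitotic entry, by 3.52 and 3.93. Bub1, the kinase that recruits the checkpoint proteins, was higher by 2.98 in KO livers without passing the threshold (adjusted p = 0.0622) and rose by 4.28 in WT livers. Cdc20, Ube2c, Plk1 and Nek2 overlap a gene on the opposite strand.

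All 4 genes of the chromosomal passenger complex, which corrects faulty attachments and later acts at the midbody, rose in both genotypes. Aurkb (ENSMUSG00000020897.12, chr11:69045647-69051664, plus strand), its kinase Aurora B, was at 11.7, 11.4, 7.06 and 4.25 CPM in the KO 48 h livers, against 0.645, 0.215, 0.623, 2.01 and 0.382 CPM in the KO sham livers (log2 change 3.42, SE 0.77, edgeR adjusted p = 0.00931). WT livers had it at 18.4, 3.55, 0.547 and 12.4 CPM in the WT 48 h livers, against 0.518, 1.27, 0.207, 1.83 and 0.373 CPM in the WT sham livers (log2 change 3.30, SE 0.82, edgeR adjusted p = 0.0106). Its highest value at any stage was that of WT 48 h replicate 1. At the other times KO livers were at 0.168, 0.329 and 0.15 CPM (6 h), 0.422, 0.236, 0 and 0.293 CPM (24 h) and 1.15, 1.69 and 0.644 CPM (7 d). The matching WT values were 0.3701, 0.221 and 0.162 CPM (6 h), 0.132, 1.83 and 0.255 CPM (24 h) and 0.525, 0.819 and 0.543 CPM (7 d). The 0 in KO 24 h replicate 3 allows up to 0.133 CPM at a floor of 3 counts. Birc5 (ENSMUSG00000017716.15, chr11:117849251-117855743, plus strand) encodes survivin, the subunit that docks the complex to centromeres. Its values were 21.6, 22.5, 23.9 and 12.1 CPM in the KO 48 h livers, against 1.07, 0.276, 0.698, 3.75 and 0.556 CPM in the KO sham livers (log2 change 3.94, SE 0.81, edgeR adjusted p = 0.00455). The WT values were 20.5, 5.82, 0.238 and 34.3 CPM in the WT 48 h livers, against 0.863, 1.72, 0.5702, 2.41 and 0.237 CPM in the WT sham livers (log2 change 3.48, SE 0.86, edgeR adjusted p = 0.00979). Among the 4 genes Birc5 had the largest change in both genotypes. Its other KO values were 0.798, 0.449 and 0.4 CPM (6 h), 0.562, 0.0886, 0.222 and 0.251 CPM (24 h) and 1.49, 2.43 and 0.805 CPM (7 d). WT livers of these times had 0.259, 0.265 and 0.365 CPM (6 h), 0.185, 1.56 and 0.382 CPM (24 h) and 0.62, 1.64 and 1.12 CPM (7 d). Incenp, the scaffold, rose by 2.46 in KO and 2.06 in WT livers, and Cdca8, the subunit borealin, by 3.09 and 2.89.

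Of the 6 kinetochore genes 2 were called in KO livers, the lowest share of the role groups, and all 6 rose in WT livers. Differences between role groups were not tested. Cenpa (ENSMUSG00000029177.9, chr5:30666777-30674830, plus strand), the histone H3 variant that marks the centromere, was at 21.4, 20.9, 24.9 and 12.5 CPM in the KO 48 h livers, against 2.58, 3.65, 2.99, 5.87 and 2.29 CPM in the KO sham livers (log2 change 2.49, SE 0.44, edgeR adjusted p = 0.00185). In WT livers it was at 24.3, 9.48, 2.71 and 34.4 CPM in the WT 48 h livers, against 2.49, 4.14, 3.24, 4.78 and 1.9 CPM in the WT sham livers (log2 change 2.36, SE 0.45, edgeR adjusted p = 0.00173). Its sham levels were the highest of the 6 in CPM in both genotypes. The remaining KO livers stood at 2.06, 1.59 and 2.1 CPM (6 h), 2.43, 1.18, 1.02 and 2.47 CPM (24 h) and 5.38, 6.89 and 5.66 CPM (7 d). Those of WT stood at 1.22, 1.55 and 1.22 CPM (6 h), 2.62, 3.25 and 5.598 CPM (24 h) and 5.03, 4.94 and 3.56 CPM (7 d). Ndc80 (ENSMUSG00000024056.10, chr17:71496100-71526857, minus strand) encodes the microtubule-binding subunit of the outer kinetochore. It had 1.88, 1.65, 0.998 and 1.31 CPM in the KO 48 h livers, against 0.107, 0.09197, 0.324, 0.734 and 0.0695 CPM in the KO sham livers (log2 change 2.37, SE 0.83, edgeR adjusted p = 0.132). WT livers had 1.73, 1.02, 0 and 3.02 CPM in the WT 48 h livers, against 0.123, 0.319, 0.0777, 0.0679 and 0 CPM in the WT sham livers (log2 change 3.39, SE 0.92, edgeR adjusted p = 0.0183). Ndc80 had the lowest mean level per kilobase of exon of the 43 genes at 48 h, 0.224 CPM per kb in KO and 0.222 CPM per kb in WT livers. Away from 48 h, KO livers had 0.168, 0.0299 and 0.05 CPM (6 h), 0.0703, 0, 0.0444 and 0.0418 CPM (24 h) and 0.287, 0.196 and 0.161 CPM (7 d). Corresponding WT livers had 0, 0 and 0.0812 CPM (6 h), 0.0264, 0.417 and 0.127 CPM (24 h) and 0.0238, 0.154 and 0.0302 CPM (7 d). Spc25, of the same complex, rose by 2.81 in KO and 2.58 in WT livers. The other 3 were higher in KO livers without passing the threshold, Nuf2 of the same complex by 3.27 (adjusted p = 0.0586), the kinetochore protein Cenpf by 2.77 (adjusted p = 0.09) and the motor protein Cenpe by 2.63 (adjusted p = 0.104). All 3 had every KO 48 h liver above every KO sham liver.

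Spindle genes rose in 5 of 6 cases in KO livers and in 6 of 6 in WT livers. Kif11 (ENSMUSG00000012443.4, chr19:37376403-37421859, plus strand), the kinesin-5 motor that pushes spindle poles apart, was at 12.7, 8.51, 5.82 and 6.13 CPM in the KO 48 h livers, against 0.591, 0.399, 0.872, 2.47 and 0.521 CPM in the KO sham livers (log2 change 3.03, SE 0.66, edgeR adjusted p = 0.00737). Among WT livers it was at 9.83, 4.37, 0.285 and 12.3 CPM in the WT 48 h livers, against 0.567, 0.531, 0.596, 0.95 and 0.441 CPM in the WT sham livers (log2 change 3.27, SE 0.70, edgeR adjusted p = 0.00387). WT 48 h replicate 3 was below all 5 WT sham livers. At the other times KO livers were at 0.294, 0.928 and 0.35 CPM (6 h), 0.176, 0.472, 0.222 and 0.4599 CPM (24 h) and 0.835, 1.37 and 0.725 CPM (7 d). The matching WT values were 0.185, 0.177 and 0.365 CPM (6 h), 0.0792, 1.22 and 0.865 CPM (24 h) and 0.453, 0.947 and 0.151 CPM (7 d). Tpx2 (ENSMUSG00000027469.16, chr2:152847964-152895321, plus strand) encodes the activator of Aurora A on spindle microtubules. Its values were 20.6, 18.3, 14.9 and 7.11 CPM in the KO 48 h livers, against 0.725, 0.4905, 1.07, 3.92 and 0.382 CPM in the KO sham livers (log2 change 3.50, SE 0.84, edgeR adjusted p = 0.0154). The WT livers had 24.3, 7.17, 0.285 and 38.4 CPM in the WT 48 h livers, against 0.617, 1.72, 0.363, 2.51 and 0.475 CPM in the WT sham livers (log2 change 3.93, SE 0.92, edgeR adjusted p = 0.00683). Tpx2 was likewise lower in WT 48 h replicate 3 than in any WT sham liver. Its other KO values were 0.546, 0.359 and 0.35 CPM (6 h), 0.387, 0.0886, 0.133 and 0.376 CPM (24 h) and 1.201, 2.13 and 0.778 CPM (7 d). WT livers of these times had 0.518, 0.398 and 0.243 CPM (6 h), 0.185, 2.67 and 0.178 CPM (24 h) and 0.501, 0.999 and 0.634 CPM (7 d). Hmmr, a microtubule-binding protein of spindle poles, had the largest change of the 43 genes in WT livers, at 12.02, 4.43, 0.0476 and 26.8 CPM in the WT 48 h livers, against 0.197, 0.319, 0.104, 0.475 and 0.0678 CPM in the WT sham livers (log2 change 5.09, SE 1.18, edgeR adjusted p = 0.00647). In KO livers it was at 13.2, 9.23, 9.54 and 5.48 CPM in the KO 48 h livers, against 0.4297, 0.0613, 0.349, 5.18 and 0.0695 CPM in the KO sham livers and did not pass the threshold (log2 change 2.95, SE 0.99, edgeR adjusted p = 0.113). KO sham replicate 4 was far above the other KO sham livers and just below the lowest KO 48 h liver. Kif2c, a microtubule depolymerase, rose by 3.42 in KO and 3.77 in WT livers, Kif4, a chromosome-bound kinesin, by 3.02 and 3.29, and Nusap1, a spindle microtubule binder, by 3.08 and 4.00.

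Cytokinesis genes rose in 5 of 6 cases in KO livers and in 6 of 6 in WT livers. Prc1 (ENSMUSG00000038943.16, chr7:80294450-80316259, plus strand), which bundles the microtubules of the central spindle, was at 19.6, 19.1, 13.3 and 8.26 CPM in the KO 48 h livers, against 0.967, 0.399, 0.573, 3.85 and 0.521 CPM in the KO sham livers (log2 change 3.54, SE 0.81, edgeR adjusted p = 0.0107). WT livers had it at 27.6, 8.37, 0.357 and 23.3 CPM in the WT 48 h livers, against 0.764, 1.91, 0.207, 1.56 and 0.543 CPM in the WT sham livers (log2 change 3.70, SE 0.86, edgeR adjusted p = 0.00669). The female livers KO 48 h replicate 4 and WT 48 h replicate 2 had nearly the same level. The remaining KO livers stood at 0.672, 0.629 and 0.05 CPM (6 h), 0.492, 0.236, 0.0888 and 0.502 CPM (24 h) and 1.85, 1.89 and 0.671 CPM (7 d). Those of WT stood at 0.703, 0.265 and 0.365 CPM (6 h), 0.159, 1.58 and 0.229 CPM (24 h) and 0.501, 1.18 and 0.362 CPM (7 d). Anln (ENSMUSG00000036777.8, chr9:22332012-22389188, minus strand) encodes anillin, the scaffold of the contractile ring. Its values were 8.61, 6.24, 4.54 and 4.03 CPM in the KO 48 h livers, against 0.457, 0.276, 0.573, 2.28 and 0.278 CPM in the KO sham livers (log2 change 2.86, SE 0.72, edgeR adjusted p = 0.0209). The WT values were 8.29, 3.74, 0.618 and 14.9 CPM in the WT 48 h livers, against 0.715, 1.105, 0.311, 1.46 and 0.102 CPM in the WT sham livers (log2 change 3.01, SE 0.76, edgeR adjusted p = 0.0113). Its WT 48 h replicate 3 lay within the WT sham range. Away from 48 h, KO livers had 0.714, 0.389 and 0.1 CPM (6 h), 0.105, 0.266, 0.577 and 0.878 CPM (24 h) and 0.757, 1.28 and 0.617 CPM (7 d). Corresponding WT livers had 0.185, 0.133 and 0.122 CPM (6 h), 0.106, 0.612 and 0.534 CPM (24 h) and 0.358, 0.743 and 0.181 CPM (7 d). Kif23, the kinesin of the centralspindlin complex, had the smallest change of the 43 genes in KO livers, at 2.19, 2.22, 1.65 and 2.75 CPM in the KO 48 h livers, against 1.101, 0.552, 0.997, 1.39 and 0.139 CPM in the KO sham livers (log2 change 1.40, SE 0.65, edgeR adjusted p = 0.339). It rose in WT livers, with 3.04, 2.15, 0.167 and 6.302 CPM in the WT 48 h livers, against 0.321, 0.893, 0.311, 1.15 and 0.102 CPM in the WT sham livers (log2 change 2.55, SE 0.71, edgeR adjusted p = 0.0227). Racgap1, the partner of Kif23, rose by 3.33 in KO and 3.34 in WT livers, Kif20a, a kinesin of the central spindle, by 3.25 and 3.78, and Ect2, the exchange factor that activates RhoA at the cleavage site, by 2.60 and 4.12. Prc1, Kif4, Nusap1, Kif20a and Cdca8 overlap a gene on the opposite strand.

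Mki67 (ENSMUSG00000031004.8, chr7:135689784-135716361, minus strand), which encodes the Ki-67 protein that coats mitotic chromosomes, was at 47.8, 29.98, 19.6 and 26.2 CPM in the KO 48 h livers, against 2.26, 0.644, 3.09, 13.1 and 0.66 CPM in the KO sham livers (log2 change 2.95, SE 0.84, edgeR adjusted p = 0.049). In WT livers it was at 40.2, 14.4, 0.785 and 69.3 CPM in the WT 48 h livers, against 1.73, 3.4, 0.959, 2.002 and 0.645 CPM in the WT sham livers (log2 change 4.09, SE 0.93, edgeR adjusted p = 0.00573). KO sham replicate 4 was the sham liver closest to the KO 48 h livers. At the other times KO livers were at 1.13, 0.988 and 0.5 CPM (6 h), 0.316, 0.236, 0.666 and 1.296 CPM (24 h) and 2.69, 3.46 and 1.395 CPM (7 d). The matching WT values were 0.999, 0.221 and 0.812 CPM (6 h), 0.159, 4.45 and 0.662 CPM (24 h) and 1.29, 1.49 and 0.724 CPM (7 d). Top2a (ENSMUSG00000020914.17, chr11:98992943-99024189, minus strand) encodes topoisomerase II alpha, which untangles sister chromatids. Its values were 33.6, 20.6, 17.7 and 13.7 CPM in the KO 48 h livers, against 2.12, 1.196, 2.29, 5.603 and 0.695 CPM in the KO sham livers (log2 change 3.16, SE 0.71, edgeR adjusted p = 0.00947). The WT livers had 35.2, 11.4, 0.666 and 31.6 CPM in the WT 48 h livers, against 1.53, 2.91, 0.777, 3.597 and 1.05 CPM in the WT sham livers (log2 change 3.34, SE 0.75, edgeR adjusted p = 0.00555). Top2a in WT 48 h replicate 3 was below every WT sham liver. Its other KO values were 1.05, 0.838 and 0.4 CPM (6 h), 1.195, 0.266, 0.533 and 0.627 CPM (24 h) and 2.71, 5.18 and 2.01 CPM (7 d). WT livers of these times had 0.999, 0.708 and 1.096 CPM (6 h), 0.555, 5.198 and 0.967 CPM (24 h) and 1.07, 2.38 and 0.905 CPM (7 d).

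**Figure D2:**
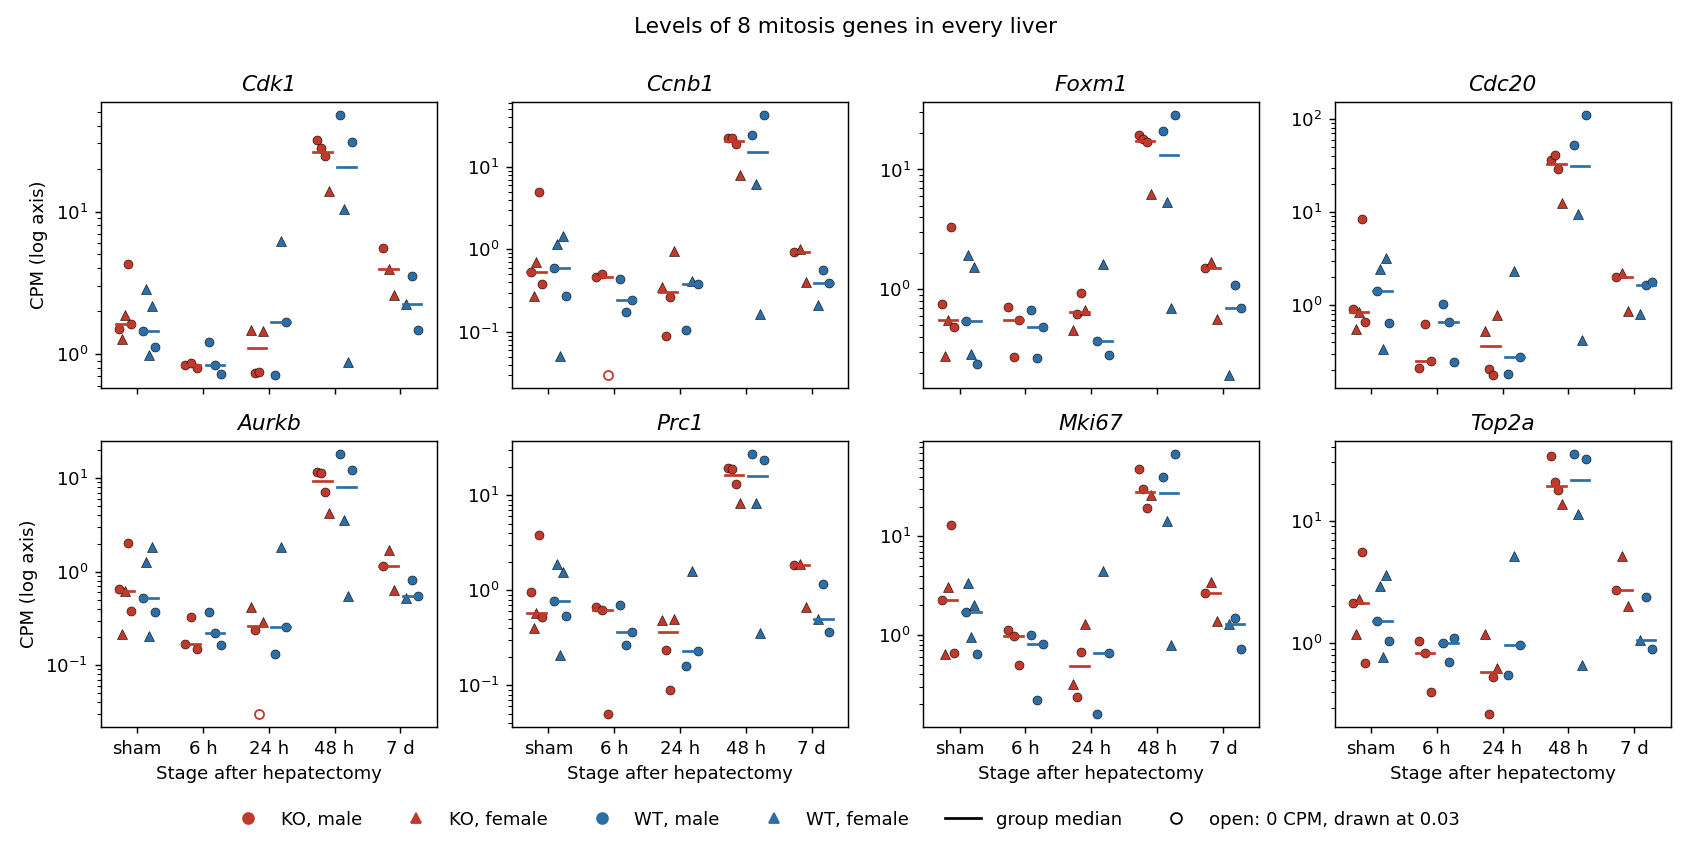
CPM (log axis) of 8 of the genes in every liver at each stage, KO in red and WT in blue, circles for males and triangles for females, with bars at the group medians and open symbols for livers at 0 CPM, drawn at the bottom. The 48 h livers stand above the other stages in both genotypes, with 1 WT female at sham level.

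Between the genotypes no difference in a mitosis gene passed the test at 48 h. None of the 43 was called in KO against WT livers by edgeR or DESeq2, and none had an unadjusted p under 0.05 in edgeR, while 0.161% of all genes were called higher and 0.18% lower. The median difference was -0.01, with 20 genes higher and 23 lower in KO livers, against a median of -0.01 over all genes. The median lay between -0.69 (males) and 0.55 (without WT 48 h replicate 4) over the alternatives. The extremes were Spc25 (log2 difference 0.86, SE 0.46, adjusted p = 0.488) and Plk1 (log2 difference -0.57, SE 0.87, adjusted p = 0.856). Spc25, at 21.4, 18.2, 15.2 and 14.5 CPM in KO livers against 12.3, 9.42, 2.07 and 14.2 CPM in WT livers, was the 1 gene whose KO 48 h livers were all above the WT 48 h livers, where 3.45% of all genes were. That count is not above the share over all genes and is not read as a result. The precision was low, since the approximate 95% interval of a gene's difference reached between 0.863 and 1.94 log2 units from its centre. It ran from -1.07 to 1.35 for Cdk1, from -1.72 to 1.71 for Ccnb1 and from -2.27 to 1.13 for Plk1. Differences within these bounds are not excluded by these data. The interaction of genotype with hepatectomy at 48 h was likewise not called for any of the 43 genes by either tool or at an unadjusted p under 0.05 in edgeR (0% of all genes were called), with a median of -0.34 that lay between -2.42 and 0.77 over the alternatives. Without a count filter 1 was called.

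**Figure D3:**
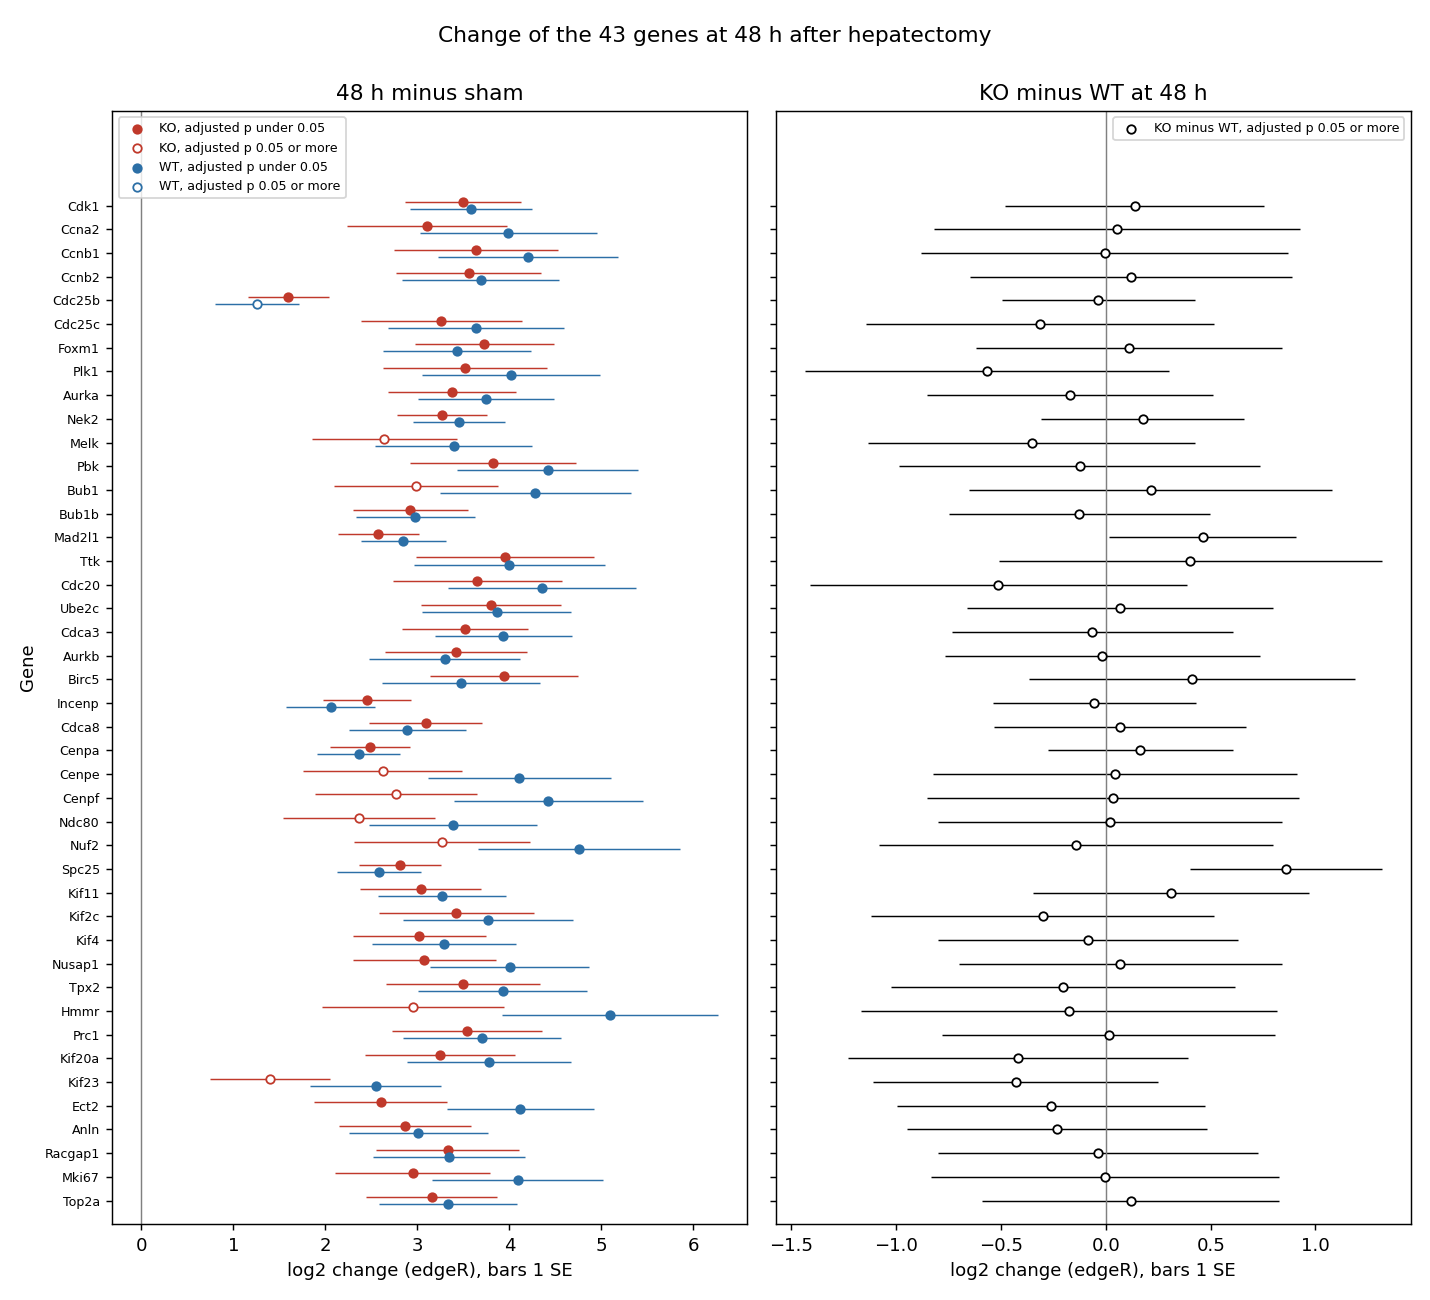
Left, log2 change of 48 h over sham livers of each of the 43 genes in KO (red) and WT (blue) livers, with filled symbols for an adjusted p under 0.05. Right, log2 difference between KO and WT livers at 48 h, where all 43 open symbols lie between -0.57 and 0.86, and bars in both panels are 1 SE.

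The sign of the genotype difference at 48 h turned on single livers. Without WT 48 h replicate 3, the liver at sham level, 41 of the 43 genes were lower in KO livers and the median difference was -0.41. Without WT 48 h replicate 4, the highest of all livers, 42 were higher in KO livers and the median was 0.55. In males only, 42 were lower in KO livers with a median of -0.69. No gene was called in any of these fits. Sex went with level at 48 h, as 32 of the 43 genes were lower in each of the 3 female livers (1 KO and 2 WT) than in each of the 5 male livers (3 KO and 2 WT), against 5.42% of all genes, and no test was made of it. The 11 genes for which the sexes overlapped were Cdc25b, Bub1, Mad2l1, Cenpe, Ndc80, Spc25, Kif11, Nusap1, Kif23, Ect2 and Mki67.

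The relative levels of some genes differed between the livers with high levels at 48 h, and the largest deviations are given. Relative to the mean of the 43 genes in the same liver and to the mean of the gene over the 7 livers that stood above sham, Cdc20 deviated by 0.82, Kif20a by 0.70 and Ect2 by 0.63 log2 units in WT replicate 4, while Spc25 deviated by -1.04, Ube2c by -0.69 and Cdk1 by -0.65. In WT replicate 1 Plk1 deviated by 0.78 and Aurkb and Ube2c by 0.62 each, and Ect2 by -0.80. WT replicate 4 thus had the higher CPM of Cdc20 (110 against 52.4 in replicate 1) and Cdca3 (101 against 56.5), and replicate 1 the higher CPM of Cdk1 (47.5 against 30.6 in replicate 4) and Ube2c (49.05 against 28.2). In KO replicate 4 Plk1 deviated by -0.91 and Kif23 by 0.76, and Kif23 deviated by 0.81 in WT replicate 2 too. These are single livers, and no test was made.

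At 24 h most of the mitosis genes were lower in KO than in WT livers, without passing the test. Of the 43 genes 39 were lower (median difference -1.11, against -0.03 over all genes), 5 had an unadjusted p under 0.05, and none was called by edgeR, while DESeq2 called 1 and 7.5% of all genes were called lower and 11.1% higher. The smallest adjusted p was that of Spc25, at 2.71, 0.945, 1.33 and 1.71 CPM in the KO 24 h livers, against 1.796, 4.78 and 6.72 CPM in the WT 24 h livers (log2 difference -1.38, SE 0.51, adjusted p = 0.0544). Bub1 had the largest difference, at 0, 0, 0 and 0.0836 CPM in the KO 24 h livers, against 0.0264, 0.278 and 0.229 CPM in the WT 24 h livers (log2 difference -2.99, SE 1.51, adjusted p = 0.157), but rests on 2 counts in the 4 KO livers. Ccnb1 was the highest in KO relative to WT livers, at 0.352, 0.0886, 0.266 and 0.962 CPM in the KO 24 h livers, against 0.106, 0.417 and 0.382 CPM in the WT 24 h livers (log2 difference 0.63, SE 1.19, adjusted p = 0.737). The ranges did not overlap for Cdc25b, Nek2 and Cenpa, all lower in KO livers, where 5.08% of all genes were. This count was near that share and is not read as a result about them. In the same livers 3 of 12 Kupffer cell markers and 6 of 10 endothelial markers fell in KO against WT livers and 4 of 12 hepatocyte markers rose, with summed endothelial levels of 88.0 to 125 CPM in KO 24 h livers against 141 to 305 CPM in WT 24 h livers, and their part in the differences was not tested. Without WT 24 h replicate 2, a female, the median difference was 0.36 and 29 of the 43 genes were higher in KO livers, while among males, which also leaves this liver out, the median was -0.59 and 33 were lower. Called were 2 genes without KO 24 h replicate 1, 1 without WT 24 h replicate 1, 3 among males and 17 without a count filter. The interaction with hepatectomy at 24 h was not called for any of the 43 genes by edgeR (6 at an unadjusted p under 0.05, 1 by DESeq2, and 2.96% of all genes called negative and 5.52% positive), with a median of -1.46 that lay between -2.15 and 0.04 over the alternatives. Without a count filter 17 were called.

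**Figure D4:**
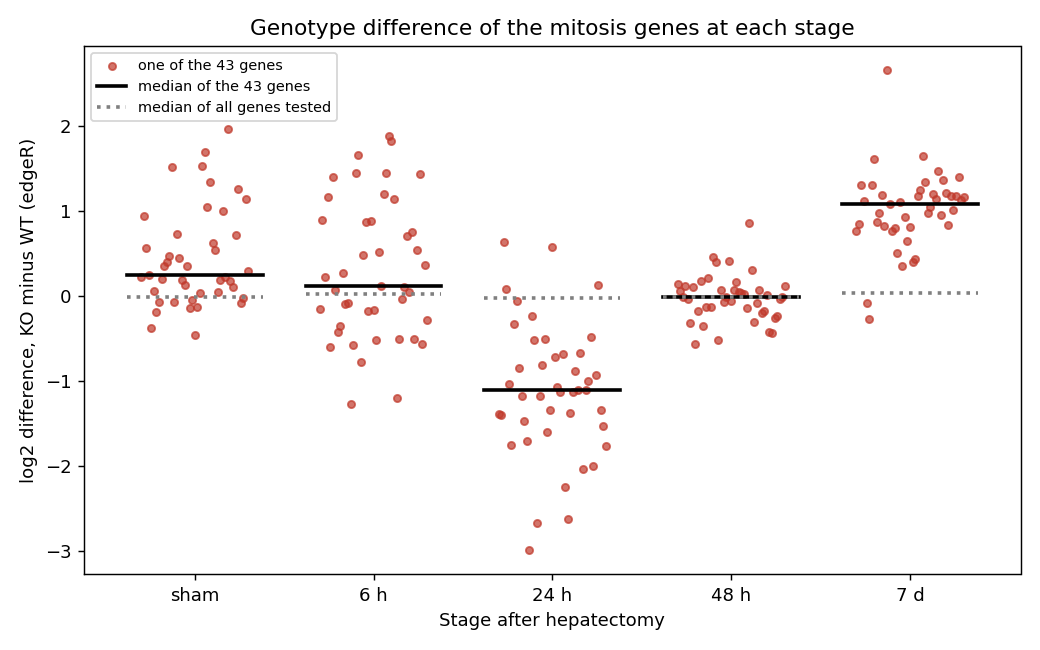
Log2 difference between KO and WT livers of each of the 43 genes (points) at each stage, with the median of the 43 genes (solid bar) and of all genes tested (dotted bar). The points centre on 0 at 48 h, below it at 24 h (39 of 43) and above it at 7 d (41 of 43), and none of the differences was called.

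WT 24 h replicate 2 had some mitosis genes above all WT sham livers and others not. In this liver 22 of the 43 genes exceeded all 5 WT sham livers, against 15.6% of all genes. Among them were Cdk1 at 6.23 CPM, Top2a at 5.20, Mki67 at 4.45, Tpx2 at 2.67 and Ccna2 at 2.31 CPM. Not among them were Ccnb1 at 0.417, Ccnb2 at 0.222, Plk1 at 1.45, Cdc20 at 2.31 and Foxm1 at 1.61 CPM. The mean log2(CPM + 1) over 34 genes of DNA replication and S phase was 3.76 in this liver, against 2.17 and 2.20 in the other WT 24 h livers and 1.88 to 2.58 in the KO 24 h livers. Its S-phase level was thus within the range of the KO 48 h livers (3.39 to 4.40), while its mean over the mitosis genes, 1.31, was below all of theirs. Mcm6, a subunit of the replicative helicase, was at 13.9, 3.898, 3.37 and 5.77 CPM in the KO 24 h livers, against 6.52, 67.4 and 6.62 CPM in the WT 24 h livers at 24 h, and at 73.5, 45.9, 40.3 and 28.8 CPM in the KO 48 h livers, against 23.5, 22.8, 4.76 and 60.3 CPM in the WT 48 h livers at 48 h.

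**Figure D5:**
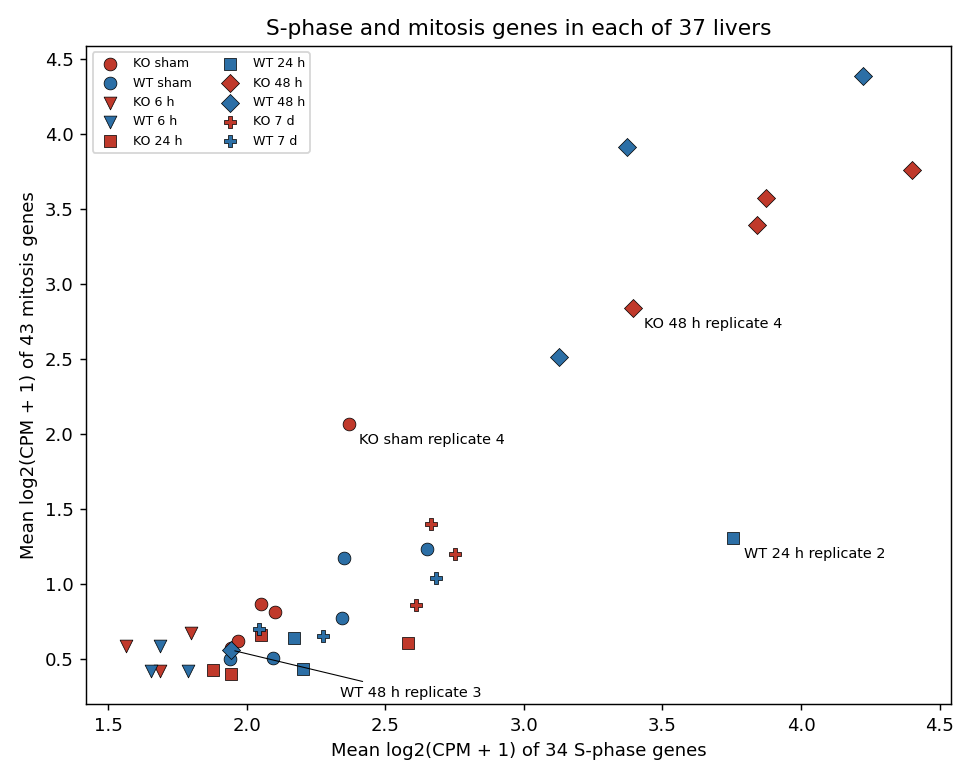
Mean log2(CPM + 1) of 34 S-phase genes (horizontal) and of the 43 mitosis genes (vertical) in each of the 37 livers, by genotype (colour) and stage (symbol). WT 24 h replicate 2 has the S-phase mean of a 48 h liver at a mitosis mean of 1.31, and WT 48 h replicate 3 lies among the sham livers.

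Against sham livers, most of the mitosis genes were lower at 24 h in KO livers. The number called in the main fit was near the share over all genes and is not read as a result about these genes. Of the 43 genes 42 were lower at KO 24 h than in KO sham livers (median log2 change -1.66), 5 of them called (19 at an unadjusted p under 0.05), near the 12.0% of all genes that were called lower. The 5 were Kif23, Mki67, Ccnb2, Cdca3 and Cenpe. Kif23 changed most, at 0.0703, 0.0591, 0.0444 and 0.167 CPM in the KO 24 h livers, against 1.101, 0.552, 0.997, 1.39 and 0.139 CPM in the KO sham livers (log2 change -3.34, SE 0.86, adjusted p = 0.00505). Mki67 was at 0.316, 0.236, 0.666 and 1.296 CPM in the KO 24 h livers, against 2.26, 0.644, 3.09, 13.1 and 0.66 CPM in the KO sham livers (log2 change -2.66, SE 0.97, adjusted p = 0.04). Incenp alone was higher at 24 h, at 1.16, 2.51, 2.62 and 3.81 CPM in the KO 24 h livers, against 1.24, 1.26, 1.37, 2.94 and 1.04 CPM in the KO sham livers (log2 change 0.71, SE 0.47, adjusted p = 0.263). The count was 31 without a count filter, 25 among males and 13 by DESeq2, and 1 with the compared groups alone. It was 1 without KO sham replicate 4, KO 24 h replicate 2 or KO 24 h replicate 3, 8 without KO sham replicate 2 and 10 without KO sham replicate 5. Markers of other liver cells were lower in the same livers. Of 12 Kupffer cell markers 9 fell, as did 9 of 12 T and NK cell markers tested and 4 of 7 B cell markers. The summed Kupffer cell level was 168 to 439 CPM in KO 24 h livers against 390 to 597 CPM in KO sham livers, and the summed T and NK cell level was 1.65 to 4.11 CPM in KO 24 h livers against 5.33 to 15.9 CPM in KO sham livers. Their part in the lower mitosis genes was not tested. In WT livers none of the 43 genes was called at 24 h by edgeR or DESeq2 (3 at an unadjusted p under 0.05, and 0.366% of all genes called higher and 0.559% lower), with 25 lower and 18 higher (median -0.18). In edgeR without a count filter 5 were called.

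At 6 h, nearly all of the genes were lower than in sham livers, and none was called by edgeR. In KO livers 42 of 43 were lower (median -1.68, 9 at an unadjusted p under 0.05, 1 called by DESeq2, and 2.51% of all genes called lower and 4.11% higher). In WT livers 42 of 43 were lower (median -1.42, 6 at an unadjusted p under 0.05, 2 called by DESeq2, and 3.7% of all genes called lower and 4.16% higher). In edgeR without a count filter 32 were called lower in KO livers and 21 in WT livers. Ranges lay wholly below sham for 7 of the 43 genes in KO livers (7.51% of all genes) and for 7 in WT livers (8.93% of all genes, with 8.15% wholly above). The 6 h livers after hepatectomy were all male, unlike the sham livers, which were also pooled over times. Sham replicate 5 of each genotype was male and taken at 6 h. Its mean log2(CPM + 1) over the 43 genes was 0.62 in KO and 0.50 in WT. After hepatectomy the 6 h livers had 0.68, 0.58 and 0.42 in KO and 0.59, 0.42 and 0.42 in WT. The lower levels against pooled sham livers are thus not read as an effect of hepatectomy. Between the genotypes none was called at 6 h by either tool (2 at an unadjusted p under 0.05, and 0.0578% of all genes called in each direction), with a median of 0.12 that was -0.13 without KO 6 h replicate 1. The KO 6 h livers were all above the WT 6 h livers for 5 genes, Cdc25c, Mad2l1, Birc5, Cenpa and Spc25, against 9.19% of all genes. This count was near that share and is not read as a result about these genes. Spc25 was at 2.69, 1.98 and 3.4 CPM in the KO 6 h livers, against 0.703, 0.619 and 0.934 CPM in the WT 6 h livers (edgeR adjusted p = 0.239). Mad2l1 was at 2.898, 2.07 and 1.5 CPM in the KO 6 h livers, against 0.925, 0.531 and 0.893 CPM in the WT 6 h livers (edgeR adjusted p = 0.345). Among sham livers, none of the 43 was called between KO and WT by either tool or at an unadjusted p under 0.05 (0.173% of all genes called higher and 0.103% lower), with a median of 0.25 and 33 genes higher in KO. The direction changed with the livers used. The median was -0.40 with 34 genes lower in KO without KO sham replicate 4, -0.78 with 38 lower among sham livers of 24 h and 48 h only, and 1.59 with all 43 higher among males. Called were 4 without a count filter.

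Between 24 h and 48 h the whole group rose in KO livers. All 43 genes were called higher at KO 48 h than at KO 24 h (median log2 change 4.94), against 12.2% of all genes, and no range overlapped, against 9.57% of all genes. All 43 were called when any single liver was left out, and 39 by DESeq2. The largest change was that of Bub1, which had 2 counts in the 4 KO 24 h livers, at 2.57, 1.67, 1.62 and 1.83 CPM in the KO 48 h livers, against 0, 0, 0 and 0.0836 CPM in the KO 24 h livers (ratio of summed levels 104.5, exact 95% interval 28.7 to 868, which covers counting error only). The smallest was that of Incenp, at 12.8, 10.9, 7.16 and 4.96 CPM in the KO 48 h livers, against 1.16, 2.51, 2.62 and 3.81 CPM in the KO 24 h livers (log2 change 1.75, SE 0.51, edgeR adjusted p = 0.012). Ccnb2 changed by 6.12, Birc5 by 5.98 and Cdc20 by 5.81 log2 units. In WT livers 2 of the 43 were called at 48 h against 24 h, Ccnb2 and Cdca3, with 0.0257% of all genes called higher and 0.0193% lower, although all 43 were higher (median 3.77) and had an unadjusted p under 0.05. The WT count was 37 without WT 48 h replicate 3, 25 without WT 24 h replicate 2 and 0 without WT 24 h replicate 1 or 3 or WT 48 h replicate 1 or 4, and DESeq2 called 33. It was 42 without a count filter, 39 among males and 0 with the compared groups alone.

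By 7 d the mitosis genes were down again. In WT livers 41 of the 43 fell between 48 h and 7 d (median log2 change -4.20), against 3.06% of all genes called lower. Plk1 fell most, at 0.215, 0.486 and 0.453 CPM in the WT 7 d livers, against 33.97, 6.45, 0.143 and 33.05 CPM in the WT 48 h livers (log2 change -5.50, SE 1.23, adjusted p = 0.00899). Cdc25b changed least and was not called, at 0.9299, 1.46 and 1.51 CPM in the WT 7 d livers, against 4.38, 2.41, 0.737 and 4.45 CPM in the WT 48 h livers (log2 change -1.20, SE 0.52, adjusted p = 0.166), and neither was Spc25 (adjusted p = 0.0519). Of the 43 genes 1, Ect2, had ranges that did not overlap (9.67% of all genes), since WT 48 h replicate 3 was low in the others. The count was 5, 14 and 7 without WT 7 d replicate 1, 2 and 3, and 1 with the compared groups alone. In KO livers none was called at 7 d against 48 h by edgeR (0% of all genes were called lower), and 0.00643% higher, although 42 had an unadjusted p under 0.05 and DESeq2 called 16. Without a count filter edgeR called 41, and with the compared groups alone it called 40. All 43 were lower, with a median of -3.07, and the ranges did not overlap for 42, against 8.46% of all genes, Kif23 being the exception. Plk1 was at 0.966, 1.45 and 0.537 CPM in the KO 7 d livers, against 15.1, 16.1, 13.98 and 4.55 CPM in the KO 48 h livers, and Kif23 at 0.548, 1.69 and 0.483 CPM in the KO 7 d livers, against 2.19, 2.22, 1.65 and 2.75 CPM in the KO 48 h livers.

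Against sham livers, none of the 43 genes was called at 7 d in either genotype by either tool (1 at an unadjusted p under 0.05 in KO livers and 0 in WT livers, and 0% of all genes called in either), with medians of 0.18 in KO and -0.42 in WT livers. Between the genotypes, 41 of the 43 were higher in KO than in WT livers at 7 d (median 1.08, against 0.03 over all genes), but none was called by either tool or had an unadjusted p under 0.05, with 0.0257% of all genes called higher and 0.0193% lower. The median lay between 0.64 and 1.31 over all alternatives, including each liver left out. For 8 genes all 3 KO livers were above all 3 WT livers, against 6.39% of all genes. They were Plk1, Aurka, Bub1, Mad2l1, Cenpa, Ndc80, Spc25 and Ect2. Spc25 was at 6.74, 5.77 and 4.86 CPM in the KO 7 d livers, against 4.12, 3.76 and 0.996 CPM in the WT 7 d livers (log2 difference 0.98, SE 0.54), Mad2l1 at 3.45, 3.48 and 3.62 CPM in the KO 7 d livers, against 1.86, 3.23 and 1.51 CPM in the WT 7 d livers (0.77, SE 0.54) and Ect2 at 1.12, 1.01 and 0.885 CPM in the KO 7 d livers, against 0.644, 0.615 and 0.302 CPM in the WT 7 d livers (1.01, SE 0.93). The interaction with hepatectomy at 7 d had a median of 0.61, between -0.90 and 1.74 over the alternatives, and at 6 h of -0.22, between -1.39 and 0.99, so neither direction held, with no gene called by either tool or at an unadjusted p under 0.05 (0% of all genes called).

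Other genes of mitosis were also higher at 48 h than in sham livers. A further 86 genes of kinetochore, condensin and cohesin, spindle, cytokinesis and mitotic regulation were followed. At KO 48 h against sham 53 rose and none fell (median log2 change 2.62), against 2.3% of all genes called higher and 0.7% lower. At WT 48 h against sham 65 rose and none fell (median 3.04), against 4.68% called higher and 3.62% lower. At KO 48 h against KO 24 h 66 rose and 1, Zwint of the kinetochore, fell, against 12.2% called higher and 14.7% lower. At WT 7 d against WT 48 h 45 fell and none rose, against 3.06% called lower and 2.87% higher. No gene of the 86 was called between KO and WT livers at 48 h, where the smallest p was that of Wee1, the kinase that restrains Cdk1 (log2 difference 1.87, SE 0.57, adjusted p = 0.163). Dsn1, of the kinetochore, had the smallest p in KO livers at 48 h against sham (log2 change 2.93, SE 0.53, adjusted p = 0.00191), and Ska1, which couples kinetochores to microtubules, the largest change (4.20, SE 0.90, adjusted p = 0.00634). In WT livers Cenpw, of the inner kinetochore, had the smallest p (log2 change 2.08, SE 0.35, adjusted p = 0.000585), and Depdc1a, a gene of proliferating cells, the largest change (5.86, SE 1.297, adjusted p = 0.00535).

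The subgroups of these 86 are counted with Kif14 in both spindle and cytokinesis. At 48 h against sham 16 of 28 kinetochore genes rose in KO and 20 in WT livers, 9 and 10 of 12 condensin and cohesin genes, 11 and 17 of 18 spindle genes, 4 and 7 of 8 cytokinesis genes and 13 and 12 of 21 regulators. Among 34 S-phase genes 27 rose in KO and 19 in WT livers. Of all genes tested, 2.3% were called higher at 48 h against sham in KO and 4.68% in WT livers. At KO 24 h against KO sham 7 of the 86 genes rose and 7 fell, smaller shares than the 15.9% of all genes called higher and the 12.0% called lower, so that these counts are not read as a result about the list. The smallest p was that of Cks1b, a subunit of cyclin-dependent kinases, which rose and was at 6.36, 14.6, 27.1 and 24.9 CPM in the KO 24 h livers, against 6.15, 4.42, 4.54, 2.65 and 6.6 CPM in the KO sham livers. Cenpt, of the inner kinetochore, rose and was at 1.76, 7.53, 5.82 and 6.11 CPM in the KO 24 h livers, against 1.21, 1.17, 1.07, 1.33 and 1.39 CPM in the KO sham livers. Esco2, which establishes cohesion between sister chromatids, fell most and was at 0.105, 0, 0 and 0 CPM in the KO 24 h livers, against 0.215, 0.0307, 0.374, 1.95 and 0 CPM in the KO sham livers. Against WT 24 h livers 4 of the 86 rose in KO livers (Cenpt, Zwint, Cks1b and Cdc25a) and 5 fell (Cenpn, Cenph, Cenpk, Ncaph and Kntc1), where 11.1% of all genes were called higher and 7.5% lower.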

How the data were processed

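RNA from frozen mouse liver was sequenced from a stranded mRNA library kit, per the labels' protocols. The authors deposited 1 table of expected counts per gene for 37 libraries, and STAR 2.5.3a, RSEM 1.3.0 and GRCm38 are named per the submitters' processing notes; the strand setting and the annotation release are not given in the sources used here. Of the 43 genes, 14 share exon sequence with another gene, 12 of them on the opposite strand, and their counts are uncertain to that extent.

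Expected counts were rounded, genes were filtered with filterByExpr, and 15564 genes were fitted with edgeR 4.0.16 in R 4.3.3 (TMM scaling, 10 groups, sex as a covariate, quasi-likelihood test, Benjamini-Hochberg adjustment over all genes). The edgeR model was also run on simulated counts with known changes, planted only in genes above a minimum mean level. That run does not cover genes of lower mean level. DESeq2 1.42.0, other scaling, no count filter, no sex term, the compared groups alone and each liver left out were alternatives. Males alone, sham livers of 24 h and 48 h, and leaving out WT 48 h replicate 3 with KO sham replicate 4 were added after seeing the data. Summaries and plots used Python 3.11.15, pandas 2.3.3, numpy 2.4.6 and matplotlib 3.10.9.

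The genes, the other gene lists and the tests were chosen with earlier results of these data known. Values in every liver are given for a panel of the genes, for the largest and smallest change of a comparison, and for genes that depart from most; of the other mitosis genes, those with the smallest p and the largest change are named. Further genes given for a single liver were chosen after their values were seen. No pair of libraries of a group agreed within sampling noise (smallest chi-square per degree of freedom 32.07). Intervals from counts and floors of 3 counts cover counting error only.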

Additional observations from a re-analysis of the deposited data

Results flagged for a closer look

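A liver that stood far from the others of its group was looked for in 95 groups of values, and 17 were found; chance flags about 5% of groups. KO sham replicate 4, taken 72 h after its operation, accounts for 16 of them. In this liver Cdk1 was at 4.27, Ccna2 at 6.22, Ccnb1 at 4.965, Foxm1 at 3.28, Plk1 at 2.975 and Aurka at 3.32 CPM, each far above the other 4 KO sham livers. Bub1b was at 2.03, Cdc20 at 8.385, Aurkb at 2.01, Birc5 at 3.75 and Kif11 at 2.47 CPM. Tpx2 was at 3.92, Prc1 at 3.845, Anln at 2.28 and Mki67 at 13.1 CPM, and the mean log2(CPM + 1) of the 43 genes was 2.07. These values are of 1 liver and are not independent of each other. The remaining value is Foxm1 at 6.27 CPM in KO 48 h replicate 4, the only female of its group, far below the 3 males.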

How the results depend on the processing

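Over all comparisons, 290 recomputed counts of called genes equalled the count of the main fit or stayed close to it, and 61 moved further. The 290 include comparisons with no gene called in either fit, so the tally does not measure how stable the calls are. The median difference between KO and WT livers changed sign under some alternatives at sham, 6 h, 24 h and 48 h, as did all 4 interaction medians. RLE scaling moved no count. Of the 43 genes, the number called under each setting was as follows. Without a count filter it was 21 for WT 6 h, 32 for KO 6 h, 5 for WT 24 h and 31 for KO 24 h against sham, 42 for WT 48 h against WT 24 h, 41 for KO 7 d against KO 48 h, and for KO against WT 4 at sham, 1 at 6 h and 17 at 24 h, with 17 and 1 for the interactions at 24 h and 48 h. With DESeq2 it was 2 for WT 6 h, 1 for KO 6 h and 13 for KO 24 h against sham, 33 for WT 48 h against WT 24 h, 16 for KO 7 d against KO 48 h, and 1 each for KO against WT and the interaction at 24 h. With the compared groups alone it was 4 for WT 48 h and 1 for KO 24 h against sham, 0 for WT 48 h against WT 24 h, 1 for WT 7 d against WT 48 h and 40 for KO 7 d against KO 48 h. Without a sex term KO 24 h against sham had 8. With sham livers of 24 h and 48 h only, it was 2 for WT 6 h, 16 for WT 48 h and 1 for KO 24 h. In males it was 3 for KO 6 h and 25 for KO 24 h against sham, 39 for WT 48 h against WT 24 h, and 3 and 5 for KO against WT and the interaction at 24 h. Without WT 48 h replicate 3 and KO sham replicate 4 it was 1 for KO 24 h against sham, 42 for WT 48 h against WT 24 h and 1 for the interaction at 24 h. The cause was not tested. With single livers left out, the count ranged from 18 to 41 for KO 48 h and from 37 to 43 for WT 48 h against sham, from 1 to 10 for KO 24 h, 0 to 2 for WT 6 h and 0 to 1 for WT 24 h against sham, from 0 to 37 for WT 48 h against WT 24 h, from 5 to 42 for WT 7 d against WT 48 h, from 0 to 2 for KO against WT at 24 h and from 0 to 1 for its interaction. No paired analysis was possible because the labels give no replicate numbers shared between groups. Low counts limit the genes near 0 CPM.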
